A study of Mus musculus with 2 samples.

Results

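The 39 interferon-stimulated genes described here were taken from a fixed list of names, and all 39 were found among the 33696 features of both count matrices and in the mouse annotation. They were followed in single-cell RNA-seq of mouse aorta, with 1 library from wild-type (WT) tissue and 1 library labelled Kif13b-/- (its genotype field calls the same sample a knock down). KIF13B is a kinesin, a motor protein that carries cargo along microtubules, and the series as a whole concerns macrophage KIF13B in atherosclerosis and the engulfing of dying cells. Strain, age, sex, diet, the nature of the Kif13b allele and the number of animals behind each library are not given in the sources used here. After filtering, 16686 WT and 6887 Kif13b-/- barcodes were analysed, with medians of 2385 and 5760 unique molecular identifiers (UMIs, 1 per captured transcript) per barcode. With 1 library per genotype there is no replicate check: no p-value is given, every interval covers counting error only at 95%, and genotype, animal and library cannot be told apart.

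Type I interferons are secreted proteins that bind the IFNAR receptor on the same or a neighbouring cell. The receptor's kinases JAK1 and TYK2 then activate transcription factors that, together with IRF9, bind a DNA element, the interferon-stimulated response element (ISRE), before many genes. Products of these genes bind viral RNA (the IFIT family), make 2'-5' oligoadenylate (enzymes of the OAS family) or modify proteins with the ubiquitin-like ISG15. Others sense nucleic acids in the cytosol (MDA5, encoded by Ifih1, and the p200 family, here Ifi204, Ifi205 and Ifi207) or raise the response further (IRF7). In atherosclerotic aorta, a macrophage group with raised interferon-stimulated genes is a well known part of the immune infiltrate.

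To show the element in these genes, the 250 bases before the RefSeq start sites (build GRCm38.p6) were searched for GAAANNGAAA, an ISRE-type motif, on both strands. RefSeq windows were matched for 30 of the 39 genes by symbol. The motif was in at least 1 window of 15 of the 30 genes, and in 936 of all 27025 genes with a window (3.46%). By window the shares were 16 of 36 (44.4%) and 978 of 32851 (2.98%). A GAS-type motif, TTCNNNGAA, searched the same way and able to overlap the first, was in 5 of the 30 genes (16.7%) and in 8.13% of all genes. The following stretches of 60 bases lie around the match nearest the start site, for 3 genes that lead the macrophage values (Ifit1, Isg15 and Rsad2), for a p200 gene that leads them too (Ifi207), for the gene pair Ifit3 and Ifit3b, and for Bst2, which was found in every cell class. Capitals mark the motif on either strand, and letters run 5′ to 3′ on the gene's strand.
Ifit1 (plus strand, chr19:34640779-34640838): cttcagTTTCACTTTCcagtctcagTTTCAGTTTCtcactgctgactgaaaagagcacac
Isg15 (minus strand, chr4:156200850-156200909): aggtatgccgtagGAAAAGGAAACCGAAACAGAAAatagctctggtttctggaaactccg
Rsad2 (minus strand, chr12:26456538-26456597): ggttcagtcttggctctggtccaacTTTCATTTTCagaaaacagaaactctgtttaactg
Ifi207 (minus strand, chr1:173741816-173741875): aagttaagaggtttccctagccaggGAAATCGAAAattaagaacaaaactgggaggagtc
Ifit3 (plus strand, chr19:34583382-34583441): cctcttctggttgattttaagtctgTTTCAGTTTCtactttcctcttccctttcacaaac
Ifit3b (plus strand, chr19:34607778-34607837): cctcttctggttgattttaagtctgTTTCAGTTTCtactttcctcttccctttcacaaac
Bst2 (minus strand, chr8:71537562-71537621): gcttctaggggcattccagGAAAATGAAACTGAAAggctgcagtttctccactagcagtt
The motif began 85 bases before the start of Ifit1, 66 before Isg15, 120 before Rsad2 and 41 before Ifi207. Ifih1 and Oasl1, which also lead the macrophage values, had matched windows without this motif. The 60 bases of Ifit3 and Ifit3b were identical, and over the 218 upstream bases that could be laid side by side 188 (86.2%) were the same letter. The 2 genes are near copies close to each other on chromosome 19, as are members of the Oas and p200 families on chromosomes 5 and 1, so reads could be split or lost between copies and their separate values are uncertain. A match is a description of letters, not evidence of binding.

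Clusters were called "-like" from marker lists, with the 39 genes and 124 related genes kept out of the genes used for clustering. Macrophage-like barcodes carried the largest share of the response. Clusters that stayed unnamed together held 24.6% of all UMIs of the 39 genes in WT and 31.7% in Kif13b-/-, on 36.9% and 48.6% of all UMIs. Macrophage-like barcodes held 40.6% in WT and 40.2% in Kif13b-/-, on 10.3% and 13.6% of all UMIs. The summed level of the 39 genes in them was 3399.8 UMIs per 1000000 UMIs of the class (CPM) in WT (interval 3361 to 3439) and 2681 in Kif13b-/- (2645 to 2717). Of the 9 classes with at least 50 barcodes in each library, the next in WT were dendritic cell-like (1395 CPM, 1343 to 1449), pericyte-like (1197, 1116 to 1283) and endothelial-like barcodes (1179, 1154 to 1205), of which the last 2 had overlapping intervals. Schwann or glial-like (927), fibroblast-like (742) and T cell-like barcodes (593) came next, and chondrocyte-like (271) and smooth muscle-like barcodes (247) were lowest. In Kif13b-/- the order was macrophage-like, endothelial-like (1430), dendritic cell-like (1138), pericyte-like (933), fibroblast-like (825), T cell-like (778), Schwann or glial-like (629), chondrocyte-like (391) and smooth muscle-like (282). Macrophage-like barcodes were thus first and smooth muscle-like ones last in both libraries, while the middle of the order differed.

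**Figure D1:**
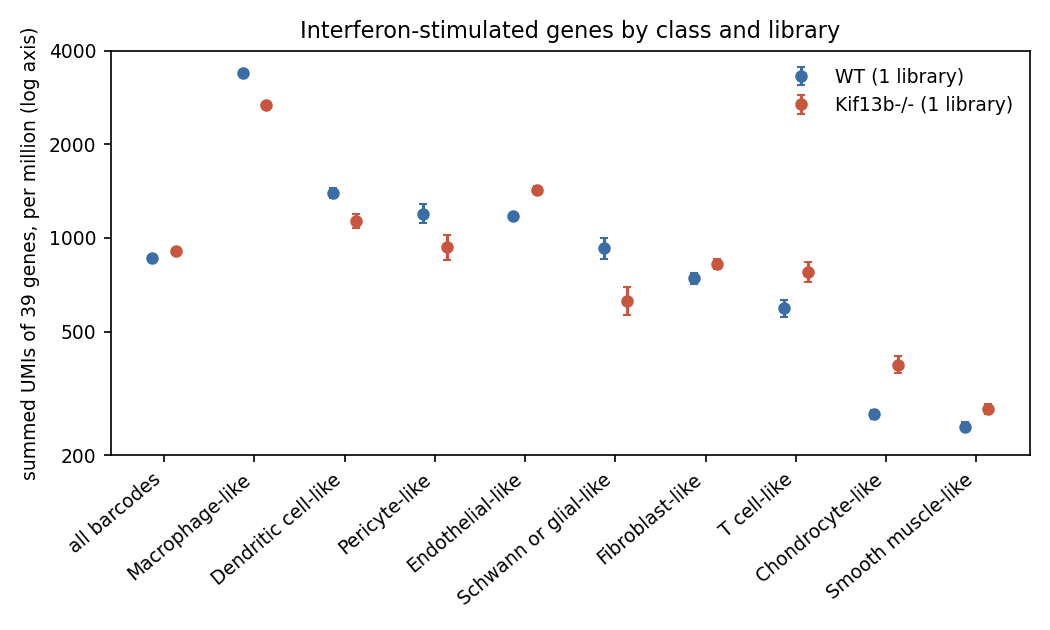
Summed UMIs of the 39 interferon-stimulated genes CPM UMIs (log axis) in all barcodes and in 9 classes, WT in blue and Kif13b-/- in red; bars are exact 95% Poisson intervals, which cover counting error only. Macrophage-like barcodes stand at 3399.8 and 2681 CPM, above every other class in both libraries.

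The facts of the libraries that bear on these values are few. The 21126 and 7766 deposited barcodes shared 52 barcode sequences, and 38 were shared among those analysed. 43.1% of WT and 49.7% of Kif13b-/- barcodes lay in clusters that stayed unnamed, among them cluster 38, which held 5 WT and 1290 Kif13b-/- barcodes, had mitochondrial genes, Ighg2b and C1qb among its leading genes, and stood at 806 CPM of the 39 genes in Kif13b-/-. Kif13b itself stood at 70.5 CPM in WT and 43.8 in Kif13b-/-. The counts are of transcript 3′ ends, and whether the allele removes that part is not given, so this level does not check the label. Over all barcodes the 39 genes summed to 862 CPM in WT and 905 in Kif13b-/-, a log2 ratio (Kif13b-/- over WT, as throughout) of 0.07 (0.05 to 0.09). This small difference changed sign when every barcode was thinned to 1000 UMIs (-0.01) and was 0.11 without cluster 38.

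Gene by gene, 18 of the 39 were highest in macrophage-like barcodes in both libraries. The same count was not made over all genes, so nothing is read from it. The 18 included the RNA sensor gene Ifih1, at 610 CPM in WT and 461 in Kif13b-/-. For Ifih1 no other class passed 152 in WT or 87.1 in Kif13b-/-. Oasl1, an OAS-like gene, stood at 385 and 270.2 CPM in macrophage-like barcodes, 132 and 120 in dendritic cell-like ones, and 22.8 or less in every other class. Rsad2, which encodes the antiviral enzyme viperin, stood at 281 and 224 CPM in macrophage-like barcodes and next in endothelial-like ones, at 29.2 and 39.97. Isg15 stood at 255 and 178, with 97.7 in WT pericyte-like barcodes and 98.2 in Kif13b-/- dendritic cell-like barcodes as the next values. Ifit1, Ifit2, Oas1a, Oas2, Oas3, Oasl2, Mx2, Ifi204, Ifi207, Rtp4, Cmpk2, Slfn8, Parp14 and Herc6 were the others.

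The remaining genes were spread differently. Slfn5, a Schlafen family gene, was highest in endothelial-like barcodes, at 266 CPM in WT and 366 in Kif13b-/-, then in pericyte-like ones (192 and 140.4), with 48.0 and 44.6 in macrophage-like barcodes and 3.17 and 0.90 in smooth muscle-like ones. Ifi44 was highest in endothelial-like barcodes too (18.9 and 24.5), and in macrophage-like ones stood at 1.90 and 0.49, from 16 and 4 UMIs. Isg20, an RNA exonuclease gene, was highest in chondrocyte-like barcodes (57.1 and 44.1 CPM), and Phf11d in pericyte-like ones (38.5 and 26.1, beside 18.3 and 25.96 in endothelial-like ones). Usp18, which removes ISG15 from proteins and dampens the receptor, and Ifi47, an immunity-related GTPase gene, were highest in T cell-like barcodes, at 11.3 and 12.1 for Usp18 and 30.1 and 30.7 for Ifi47. For Ifi47 endothelial-like barcodes were close, at 28.5 and 30.3. The Usp18 values there lie next to 11.3 and 9.98 in macrophage-like barcodes. Bst2, which encodes tetherin, an antiviral membrane protein, was found in every class, from 16.6 in chondrocyte-like to 169 in pericyte-like barcodes in WT and from 28.7 to 216 (endothelial-like) in Kif13b-/-.

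**Figure D2:**
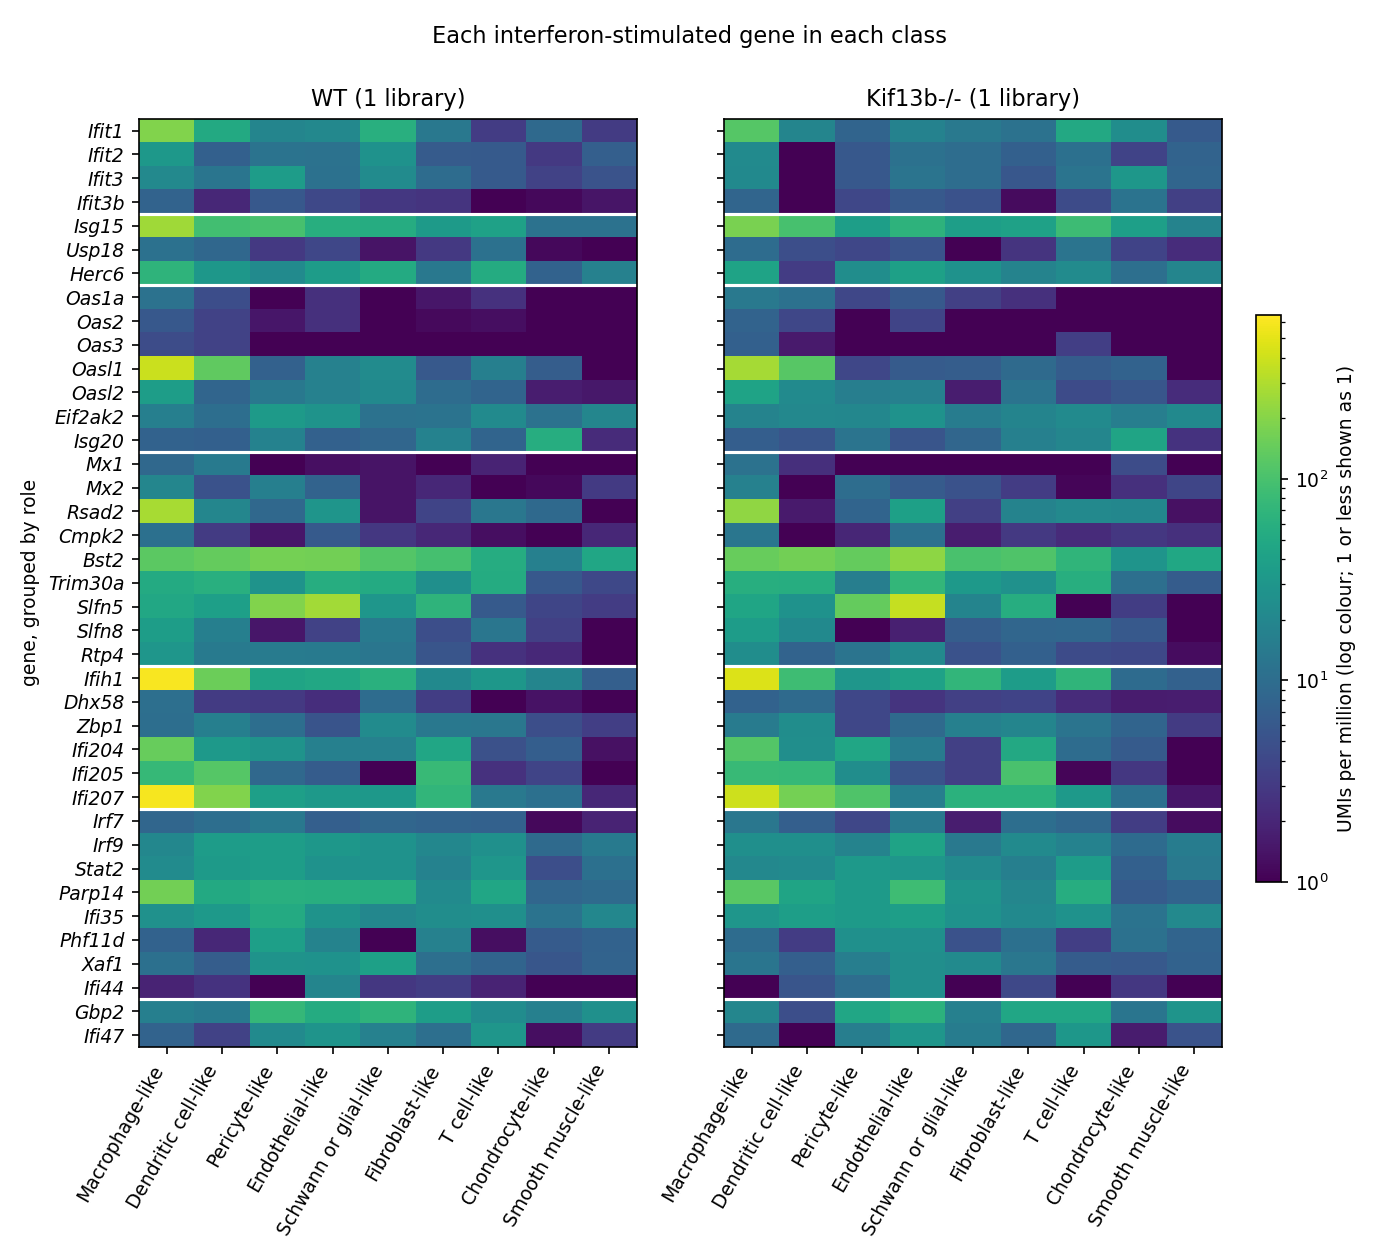
CPM (log colour scale, values of 1 or less shown as 1) of each of the 39 genes, grouped by role between white lines, in 9 classes, WT on the left and Kif13b-/- on the right. Ifih1 and Ifi207 in macrophage-like barcodes are the brightest cells, Slfn5 is brightest in endothelial-like barcodes (266 and 366) and Bst2 is seen in every class.

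In macrophage-like barcodes the summed level was lower in Kif13b-/-, with a log2 ratio of -0.34 (-0.37 to -0.32), and it stayed below 0 under each of 13 other settings (-0.54 to -0.26). In the same barcodes the macrophage gene C1qa stood at 2294 CPM in WT and 2348 in Kif13b-/-, Acta2 at 408 and 629 and the fibroblast gene Dcn at 551 and 641, and the part of these in the ratio was not tested. The sum and the single genes do not say the same thing. Of the 39 genes, all of which had 20 or more UMIs over both libraries, 20 were above 0 and 19 below, and their median was 0.05, beside 0.03 over all 13340 genes with as many UMIs. 2 genes were higher by a ratio of 1.5 or more (5.13% of the 39), as were 7.98% of all genes, and 4 were lower (10.3%), as were 5.59% of all. Without the 5 barcodes of each library that held most UMIs of the 39 genes, 1 was higher and 8 were lower. The share over all genes was not counted in that setting. The 6 genes with most UMIs, Ifih1, Ifi207, Oasl1, Rsad2, Isg15 and Ifit1, made up 68.2% of the sum in WT and 61.5% in Kif13b-/-. All 6 were lower in Kif13b-/-, and together they went from 2319 to 1648 CPM (log2 ratio -0.49, -0.52 to -0.46). The other 33 genes together stood at 1081 and 1033 (-0.07, -0.11 to -0.02), with 20 of them above 0.

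By role, the 4 IFIT genes, whose products bind RNA that lacks the host's cap marks, summed to 249 CPM in WT macrophage-like barcodes and 169 in Kif13b-/- (log2 ratio -0.56, -0.66 to -0.46). Ifit1 led that difference, at 188 and 117 (-0.69, -0.80 to -0.57), while Ifit3 stood at 21.1 and 21.8. The ISG15 conjugation genes summed to 335 and 230.3 (-0.54), with Isg15 itself at 255 and 178 (-0.52, -0.62 to -0.43) and Herc6, an ISG15 ligase gene of the mouse, at 68.1 and 42.8 (-0.67, -0.87 to -0.48). The nucleic acid sensors, the group with most UMIs, summed to 1451 and 1076 (-0.43, -0.47 to -0.39). Within it Ifi207 went from 599 to 398 CPM (-0.59, -0.66 to -0.53) and Ifih1 from 610 to 461 (-0.40, -0.46 to -0.34), while Zbp1, a sensor of Z-form nucleic acids, went from 10.3 to 14.9 (0.53, 0.12 to 0.95). Members of that group thus differed in direction.

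The OAS family with Isg20 and Eif2ak2, which encodes the RNA-activated kinase PKR, summed to 468 and 367 (-0.35), and Oasl1, at 385 and 270.2 (-0.51, -0.59 to -0.43), led that difference. Oas3, at 4.51 and 7.27 CPM from 38 and 59 UMIs, was past the ratio in the other direction (0.68, 0.08 to 1.32). The virus restriction genes summed to 614 and 572 (-0.10, -0.16 to -0.04), with Rsad2 lower (-0.32) and Bst2 at 126 and 144 (0.19, 0.07 to 0.32). Among transcription factors and regulators, Irf7 stood at 8.54 and 13.2 CPM (0.62, 0.18 to 1.08) and Irf9 at 19.8 and 25.1 (0.34, 0.04 to 0.65), while Stat2 stood at 22.8 and 20.5 (-0.15, -0.46 to 0.15). Parp14 went from 162 to 125 (-0.37). Ifi44, from 16 and 4 UMIs, was at -1.82 (-3.98 to -0.31). The 2 GTPase genes, Gbp2 and Ifi47, were at 0.26 each, with intervals that include 0.

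**Figure D3:**
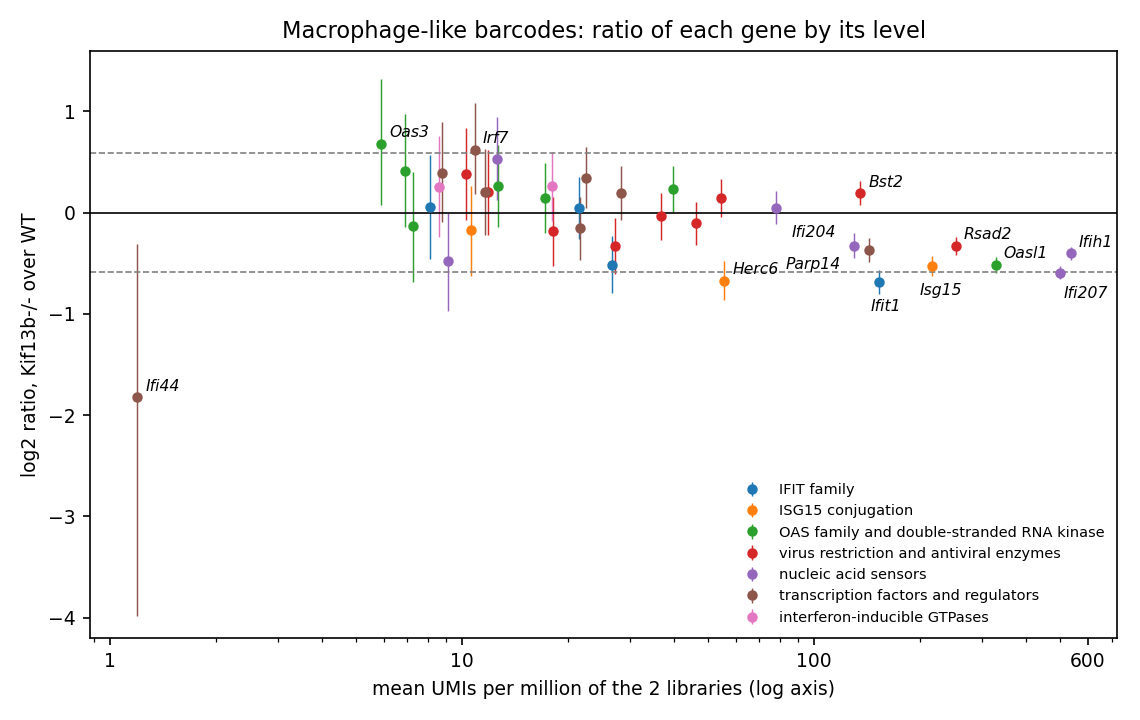
Log2 ratio (Kif13b-/- over WT) of each of the 39 genes in macrophage-like barcodes against its mean level in CPM (log axis), coloured by role, with exact 95% intervals for counting error; dashed lines mark a ratio of 1.5 either way. The 6 genes with most UMIs lie below 0, Bst2 lies above 0, and genes under 20 CPM lie on both sides.

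The macrophage-like class joined 2 clusters of different depth. Cluster 31 (748 WT and 445 Kif13b-/- barcodes, medians of 8632 and 13813 UMIs) had C1qa, C1qc, Adgre1 and Ms4a7 among its leading genes, and also Ifih1 and Rsad2 although neither was used to form it. Cluster 12 (364 and 467 barcodes, medians of 1765 and 1782 UMIs) was led by Cd5l, Npy, Mmp12, Gpnmb and Trem2, genes known from lipid-laden macrophages. The 39 genes stood at 3823 and 3110.2 CPM in cluster 31 and at 778 and 600 in cluster 12. The log2 ratio was -0.30 (-0.32 to -0.27) in cluster 31 and -0.38 (-0.51 to -0.24) in cluster 12. After thinning, the ratio was -0.14 in cluster 31 and 0.04 in cluster 12, so that of cluster 12 changed sign. Cluster 12 made up a larger part of the class in Kif13b-/-, so the ratio of the whole class also holds that difference in make-up. Cluster 0, with 1556 and 431 barcodes, 8 of 10 macrophage markers and Ccl3, Il1a, Tnf and Cxcl2 among its leading genes, stayed unnamed because Pf4, a marker of another class, stood among those leading genes. It held 1715 and 1104 CPM (-0.64, -0.71 to -0.56), and with it counted among the macrophages the class ratio was -0.26.

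To ask whether a separate interferon-high group exists, each barcode was thinned at random to 1000 UMIs, and a barcode was called interferon-high if 10 or more of these came from the 39 genes. In macrophage-like barcodes the number ran from 0 to 47 in WT and 0 to 46 in Kif13b-/-, with a median of 1 in each and a variance 7.72 and 11.4 times the mean. 29.2% of WT and 38.998% of Kif13b-/- barcodes had none. In WT the numbers fell off with no clear second peak. In Kif13b-/- they dipped to 4 barcodes at 7 UMIs, with 9 at 8 and 10 at 9, counts too small to tell a second peak from a flat tail. The interferon-high barcodes are therefore described as a range and not a type: 66 WT and 28 Kif13b-/- barcodes lay at 8 to 11, around the limit. 91 of 1047 WT barcodes (8.69%, Clopper-Pearson interval 7.06 to 10.6) and 49 of 818 Kif13b-/- barcodes (5.99%, 4.46 to 7.84) were interferon-high, and they held 43.5% and 48.2% of the class's thinned UMIs of these genes. 65 and 94 barcodes under 1000 UMIs were left out. All of the interferon-high macrophage-like barcodes lay in cluster 31, where the shares were 12.3% (9.99 to 14.8) and 11.1% (8.35 to 14.5). With a limit of 5 the class shares were 22.0% and 12.5%, and with a limit of 20 they were 1.53% and 1.96%, so the order of the libraries changed with the limit.

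**Figure D4:**
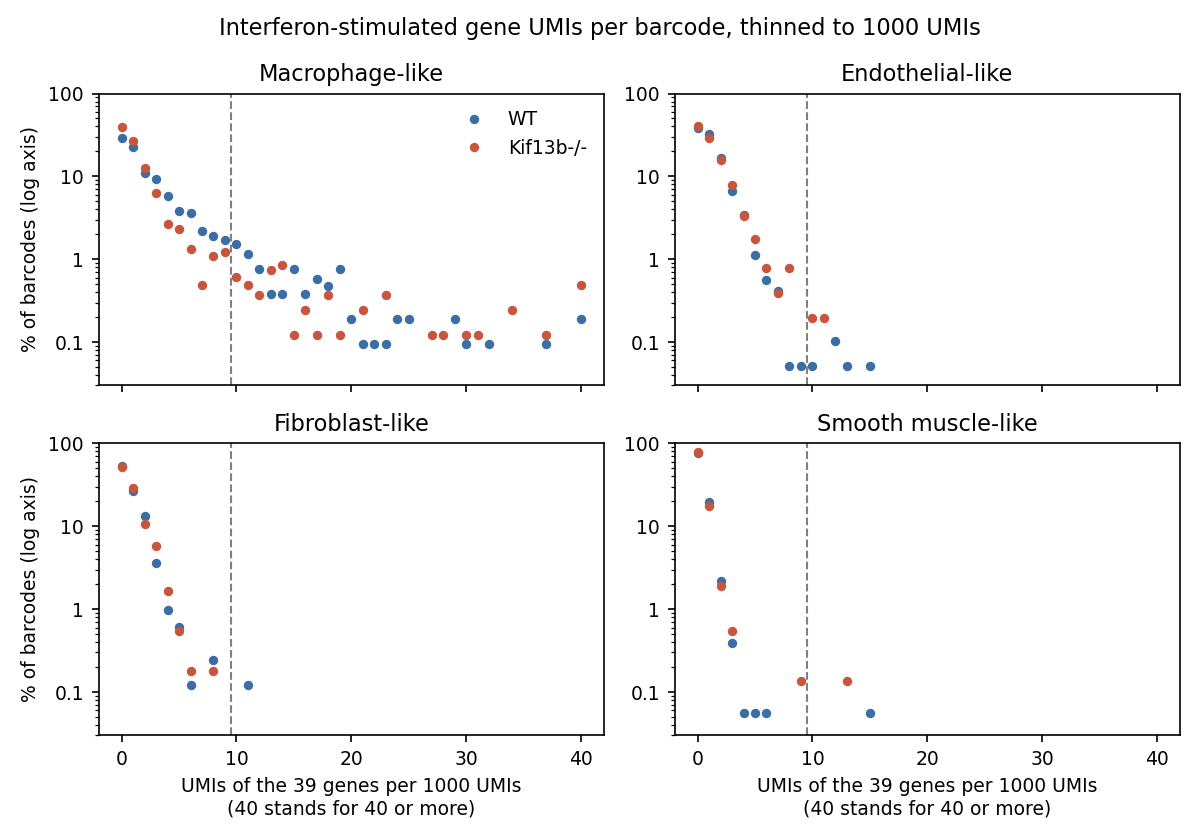
Share of barcodes (log axis) with each number of UMIs from the 39 genes per 1000 UMIs, in 4 classes, WT in blue and Kif13b-/- in red; the dashed line lies just below the limit of 10, 40 stands for 40 or more, and numbers with no barcode are not drawn. Macrophage-like barcodes reach 47 and 46 with a long, thinly filled tail, and the other classes seldom pass 10.

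Macrophage-like barcodes with more UMIs of 1 part of the gene list had more of the other part on average. When the list was split by alternate genes and WT macrophage-like barcodes were picked by 5 or more UMIs of the first 20 genes, the other 19 genes averaged 4.79 UMIs in the 119 picked barcodes and 1.01 in the 928 others. In Kif13b-/- the averages were 5.40 in 67 barcodes and 0.58 in 751. Across macrophage-like barcodes the 2 parts of the list had a Pearson r of 0.69 in WT and 0.76 in Kif13b-/-. Endothelial-like barcodes gave 0.17 and 0.22. These are descriptions over barcodes of 1 library, whose counts share their depth of 1000 UMIs. The macrophage-like class joined cluster 31, with thinned means of 4.3 and 3.9, and cluster 12, with 0.64 and 0.66. Endothelial-like barcodes had means of 1.16 and 1.24. The near copies Ifit3 and Ifit3b also fell in different parts of the list. The values of r are therefore not compared between the classes. The part of the 2 clusters and of the near copies in the averages and in r was not tested. When macrophages were clustered again with the 39 genes included, 1 of 14 sub-clusters, of 420 among 2024 barcodes, had 4 of them among its 10 leading genes (Rsad2, Ifit1, Ifit2 and Oasl1), beside Ifnb1, Ccl8 and the class II genes H2-Aa, H2-Ab1 and H2-Eb1. Its size is not compared between libraries, since the genes that form it differ between them. At a finer resolution without the 39 genes, 1 cluster of 336 WT and 173 Kif13b-/- barcodes gathered 72 of 125 and 42 of 55 of all interferon-high barcodes. It had Oasl1, Rsad2 and Ifih1 among its leading genes and stayed unnamed between macrophage and monocyte, with 9 of 10 macrophage markers.

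In the interferon-high barcodes, 37 of the 38 genes with 20 or more UMIs in each library were higher than in other macrophage-like barcodes by a ratio of 1.5 or more in both libraries, which the choice of barcodes brings about and which is given as a description. The size of the difference varied from gene to gene. Rsad2 stood at 2267 against 101 CPM in WT and 2817 against 39.1 in Kif13b-/-. Mx1, a dynamin-like antiviral GTPase gene, stood at 93.9 against 1.17 in WT and 152, beside 12 UMIs in all other barcodes, in Kif13b-/-. Ifit1 stood at 1247 against 92.4 and at 1409 against 24.9. Ifi207 was less uneven, at 1462 against 523 and 1184 against 343. Bst2 hardly followed, at 200.5 against 120 and 198 against 141, and was the 1 of the 38 that did not pass the ratio in both libraries. Ifi44 was the gene with too few UMIs.

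Some genes that did not enter the choice were higher in the same barcodes. By the rule of naming the 12 other genes with the largest difference in both libraries, these were Trim30c, Ifi206, Clec10a, Ifi209, Ifnb1, Trim30d, Il15, Rnf213, Pml, Ddx60, Grap2 and Arhgap28. Ifi206 and Ifi209 are further p200 genes and Trim30c and Trim30d relatives of Trim30a, so part of these are close kin of the list. Ifnb1, which encodes interferon beta and is thus a ligand and not a response gene, stood at 464 CPM in interferon-high against 45.3 in other WT barcodes, and at 496 against 8.67 in Kif13b-/-. Il15, a cytokine gene, stood at 141 against 15.4 and 168 against 16.7. Clec10a, a lectin gene of macrophages and dendritic cells, stood at 168 against 16.3 and 111 against 6.27.

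Of the related lists, all 11 measured targets typical of interferon gamma were higher in interferon-high barcodes in both libraries (such as Cxcl10, at 3094 against 641 and 2482 against 300.4, and Gbp5, at 223 against 56.7 and 263 against 28.3). So were 32 of 42 other interferon-induced genes and 5 of 14 genes of MHC class I presentation, beside 749 of all 11221 genes (6.68%). So were 2 of 5 JAK-STAT transducers and 3 of 11 upstream sensors and kinases. None of 5 interferon receptor genes was, and 2 were lower in both libraries, as were 2392 of all 11221 genes. Of 6 inhibitors of interferon signalling 1 was higher in both libraries (Socs1) and 1 was lower (Trim24). Socs1, an inhibitor of the receptor kinases, stood at 31.3 against 13.2 and 75.8 against 7.87. Trim24 stood at 7.11 against 17.1 and 9.25 against 20.7. None of 5 other interferon regulatory factors was higher or lower in both libraries. No interferon gamma (Ifng) UMI was found in 1112 WT or 912 Kif13b-/- macrophage-like barcodes, for which the Clopper-Pearson upper limits are 0.33% and 0.40% of barcodes with a UMI. In T cell-like barcodes Ifng had 21 UMIs in 14 WT barcodes and 68 UMIs in 8 Kif13b-/- barcodes, 54 of them in 1 barcode.

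The interferon-high barcodes also differed from other macrophages in genes outside the interferon lists. Within cluster 31 alone the median UMIs of interferon-high and other barcodes were 7030.0 and 8905 in WT and 11234 and 14342 in Kif13b-/-. Over the whole class they were 7030 and 6412.5 in WT and 11234 and 5122 in Kif13b-/-. Depth thus differed less within cluster 31 only in Kif13b-/-. In cluster 31 alone Spp1, the osteopontin gene of lesion macrophages, stood at 1332 CPM in interferon-high against 14535 in other WT barcodes. In Kif13b-/- it stood at 2164 against 18899. Trem2, a lipid receptor gene, stood at 237 against 585 and 281 against 791. Mrc1 (CD206) stood at 557 against 189 and 259 against 90.4, and F13a1 at 417 against 79.8 and 215 against 50.2, 2 genes typical of resident macrophages, while Folr2, a further one, stood at 111 against 57.5 and 68.4 against 84.6. H2-Aa, an MHC class II gene, a kind known to respond to interferon gamma through CIITA, stood at 3448 against 1606 and 4195 against 1159. C1qa stood at 2015 against 2482 in WT and 1755 against 2690 in Kif13b-/-, and Csf1r at 313 against 277 and 277 against 273. Plac8, a monocyte gene, stood at 105 against 150.2 in WT and at 810 against 172 in Kif13b-/-, while Ly6c2, another monocyte gene, stood at 66.8 against 35.4 and 154 against 47.9. Among all macrophage-like barcodes, summed markers of other types differed with the state for some types. Those of T cells, NK cells, B cells, plasmacytoid dendritic cells and neutrophils had a median of 0 per 1000 UMIs in interferon-high and other barcodes of both libraries. Fibroblast markers had a median of 0 in interferon-high barcodes of both libraries against 1 in other WT and 2 in other Kif13b-/- barcodes, and smooth muscle markers 0 against 0 and 0 against 1. Dendritic cell markers stood at 5 against 3 in WT and 4 against 3 in Kif13b-/-, and macrophage markers at 9 against 7 and 6 against 5. No interferon-high barcode lay in cluster 12, which held 31.9% of the other WT and 49.2% of the other Kif13b-/- barcodes. Dcn stood at 3684 and 3499 CPM in cluster 12. Within cluster 31 Dcn stood at 34.1 against 46.4 in WT and 35.1 against 52.6 in Kif13b-/-. Acta2 stood there at 59.7 against 213 and 48.1 against 162. The fibroblast contrast thus also holds a difference in make-up. The part of these markers in the result was not tested.

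Within cluster 31 the genotype ratio ran in opposite directions in the 2 states. In interferon-high barcodes the 39 genes summed to 14913 CPM in WT and 17551 in Kif13b-/- (log2 ratio 0.23, 0.19 to 0.28, and 0.26 after thinning). In the other barcodes they summed to 2633 and 1845 (-0.51, -0.55 to -0.48, and -0.42 after thinning). By gene, 35 of 39 were above 0 in the interferon-high barcodes, with a median of 0.38. In the other barcodes 25 of 39 were below 0, with a median of -0.26. Neither count was made over all genes in these 2 groups, so nothing is read from them. Ifit1 stood at 0.18 (0.03 to 0.32) in the first and -1.92 (-2.17 to -1.67) in the second. Rsad2 stood at 0.31 (0.21 to 0.42) and -1.31 (-1.51 to -1.11), and Cmpk2, the neighbour of Rsad2 on chromosome 12, at 0.99 (0.52 to 1.48) and -1.79 (-3.31 to -0.63). Ifi207 was below 0 in both (-0.30 and -0.56). Irf7 was above 0 in both (0.73 in each). The groups were formed on the sum of these same genes, so nothing is read from the opposite signs of the summed ratio. The groups are also small (91 and 49 barcodes in the first), and the difference was not tested. 1 Kif13b-/- barcode held 616 of the 21749 UMIs of the class.

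**Figure D5:**
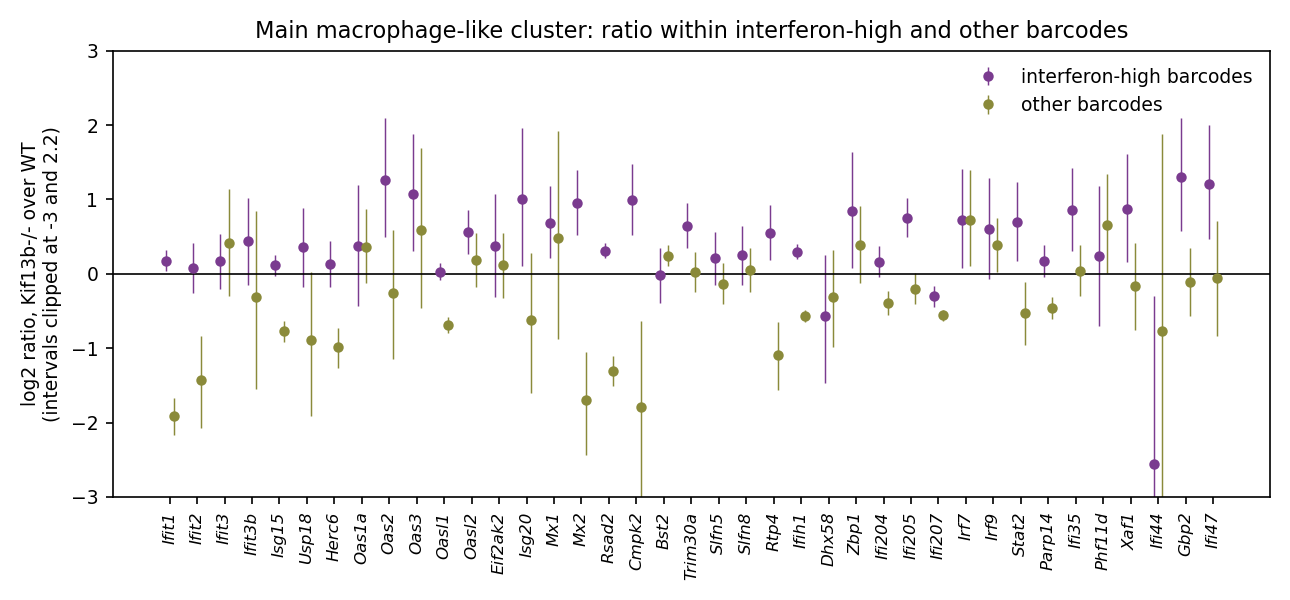
Log2 ratio (Kif13b-/- over WT) of each of the 39 genes in the interferon-high (purple) and the other (olive) barcodes of cluster 31, with exact 95% intervals for counting error, drawn to -3 and 2.2 at most. 35 of 39 purple points lie above 0 and 25 of 39 olive points below 0, with Cmpk2, Mx2 and Ifit1 farthest apart. The same counts over all genes were not made.

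Macrophage-like barcodes held 675 of the 933 Ifnb1 UMIs of the WT library and 337 of 670 in Kif13b-/-, and few of these barcodes held any. 130 of 1112 WT (11.7%, 9.86 to 13.7) and 46 of 912 Kif13b-/- macrophage-like barcodes (5.04%, 3.72 to 6.67) had an Ifnb1 UMI. In smooth muscle-like barcodes, taken here for comparison, not as a measure of free RNA, and with more UMIs per barcode (medians of 6687 and 11433, against 5971 and 4224), the shares were 0.11% and 0.53%. After thinning to 1000 UMIs they were 5.06% and 2.08% in macrophage-like barcodes and 0 of 1809 and 0 of 742 in smooth muscle-like ones. The 10 barcodes with most Ifnb1 held 213 of 675 UMIs in WT and 243 of 337 in Kif13b-/-. The level in macrophage-like barcodes was 80.1 CPM in WT and 41.5 in Kif13b-/- (log2 ratio -0.95, -1.14 to -0.76). In cluster 31 alone it was 90.3 and 49.1 (-0.88, -1.07 to -0.69). Over all barcodes Ifnb1 stood at 11.4 CPM in WT and 11.2 in Kif13b-/-, with 213 and 320 UMIs in unnamed clusters. In cluster 31, barcodes with an Ifnb1 UMI averaged 10.4 UMIs of the 39 genes per 1000 in WT and 15.2 in Kif13b-/-, and those without it 3.12 and 2.77. 38.8% and 57.5% of the first were interferon-high, and 7.08% and 6.50% of the second. In Kif13b-/- a further 225 of the 1290 barcodes of cluster 38 (17.4%) had an Ifnb1 UMI, at 24.96 CPM, and none of that cluster was interferon-high.

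Of the other pathway lists in macrophage-like barcodes, no gene of 5 measured interferon receptors, 5 JAK-STAT transducers, 6 inhibitors, 5 other interferon regulatory factors or 14 genes of MHC class I presentation was past the ratio of 1.5 in either direction. Ifnar1 stood at 70.0 and 66.9 CPM and Jak1 at 237 and 235. Among 14 measured targets typical of interferon gamma, 4 were lower (Gbp5, Gbp6, Iigp1 and Cxcl10) and 1 was higher (Gbp8), beside the shares of 5.59% and 7.98% over all genes. Cxcl10, a chemokine gene, went from 844 to 444 CPM (-0.93, -0.98 to -0.87). Among 46 other interferon-induced genes, 4 were lower, among them Ccl5 (925 and 585, -0.66) and Samd9l, and 3 were higher (Ifi213, Ms4a4c and Oas1g), which lie near those shares. Among 12 sensors and kinases upstream of the interferon genes, Mavs was higher (0.63, from 47 and 70 UMIs) and Tlr9 lower.

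Among macrophage sub-clusters with barcodes of both libraries, 2 had a ratio above 0. In the one led by Rsad2, Ifnb1 and Ifit1, which these genes helped to form, the 39 genes stood at 7485 and 8863 CPM (0.24, 0.21 to 0.28), and 0.23 after thinning. The one led by the monocyte genes Plac8, Chil3 and Ly6c2 held 67 WT and 59 Kif13b-/- barcodes, in which the 39 genes stood at 3032 and 4762 CPM (log2 ratio 0.65, 0.56 to 0.74), and 0.82 after thinning. 2 and 8 of these barcodes were interferon-high. In the sub-cluster led by cell-cycle genes, of 100 and 29 barcodes, they stood at 2866 and 1592 (-0.85), but at -0.08 after thinning.

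Endothelial-like barcodes had a raised level in part of the class but hardly any interferon-high barcodes: 5 of 1956 in WT (0.26%, 0.08 to 0.60) and 2 of 512 in Kif13b-/- (0.39%, 0.05 to 1.40). The level differed between endothelial clusters. Cluster 18, whose leading genes Gpihbp1, Btnl9, Cd300lg and Cd36 are typical of capillaries, held 281 and 82 barcodes and stood at 1920.5 CPM of the 39 genes in WT and 2403 in Kif13b-/-. Cluster 3, whose leading genes Sema3g, Gja5 and Bmx are typical of arteries, stood at 951 and 764. Cluster 36, with the same 3 genes among its leading ones, stood higher, at 1580 and 1372. Clusters 3 and 36 also differed in depth (medians of 1524 and 4522 UMIs in WT) and in the smooth muscle gene Acta2 (2910 and 543 CPM in WT), whose part in the level was not tested. A sub-cluster led by Btnl9, Gpihbp1 and Car4, singled out after its values were seen, stood at 2398 and 2527 CPM against 1035 and 1022 in all other endothelial-like barcodes, and the values of the 2 libraries thus nearly matched within each group. In the sub-cluster led by Btnl9 the thinned counts had a mean of 2.68 and 2.78 with a variance 1.52 and 2.26 times the mean.

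In that sub-cluster 15 of 30 measured genes were higher than in other endothelial-like barcodes by a ratio of 1.5 or more in both libraries, beside 14.4% of all genes. The sub-cluster was picked for its summed level of these genes, so nothing is read from that count. Slfn5 led, at 822 against 200.5 CPM in WT and 815 against 199 in Kif13b-/-. Bst2 stood at 316 against 147 and 391 against 151, and Rsad2 at 126 against 17.7 in WT and at 123, against 23 UMIs in all other endothelial-like barcodes, in Kif13b-/-. Ifi44 stood at 53.6 against 14.8 and 56.0 against 12.8. Of the genes highest in macrophage-like barcodes, several were higher here too (Rsad2, Rtp4, Mx2, Cmpk2, Parp14 and Herc6 among them), while Ifih1 stood at 41.2 against 49.1 and 43.1 against 39.6, and Ifi207 was lower in both (13.8 against 34.3 in WT). C1qa, a macrophage gene, stood at 16.5 and 5.39 CPM in the sub-cluster and 86.6 and 100.4 outside it. Acta2 stood at 432 against 2311 in WT and 158 against 2371 in Kif13b-/-, and Cdh5, an endothelial junction gene, at 1570 against 492 and 1590 against 490, so the other endothelial-like barcodes held more smooth muscle RNA and less of this endothelial transcript. The part of this in the level was not tested.

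Over the whole endothelial-like class the log2 ratio was 0.28 (0.23 to 0.33). The sub-cluster held 8.70% of WT and 15.6% of Kif13b-/- endothelial-like barcodes. Without it the ratio was -0.02, a sum over groups whose ratios had either sign. Thinned, the class ratio was 0.10. Of 37 genes with enough UMIs 7 were higher (6.39% of all genes were) and 3 lower (8.38% of all). Without the 5 barcodes of each library with most UMIs of these genes, 4 were higher, and the share over all genes was not counted. Slfn5 stood at 266 and 366 and Parp14 at 57.8 and 86.9 CPM, while Oasl1 stood at 17.4 and 6.42.

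Fibroblast-like, smooth muscle-like and chondrocyte-like barcodes held no separate interferon-high group. 1 of 821 WT and 0 of 551 Kif13b-/- fibroblast-like barcodes (Clopper-Pearson upper limit 0.67%), 1 of 1809 and 1 of 742 smooth muscle-like barcodes, and 0 of 1279 (upper limit 0.29%) and 1 of 197 chondrocyte-like barcodes were interferon-high. None of 19 sub-clusters of these stromal classes, formed with the 39 genes included, had any of them among its 10 leading genes. A sub-cluster led by Ccl4, Il1b and Cybb, of 367 and 20 barcodes, stood at 915 and 2317 CPM and held no interferon-high barcode. Of the unnamed clusters 15, 17, 19 and 20, outside these classes, only cluster 19 held one, 1 of 277 in Kif13b-/-. In the 3 classes the variance was at most 3.11 times the mean. That value was reached in the Kif13b-/- chondrocyte-like barcodes, which hold the 1 interferon-high barcode of their class. Fibroblast-like barcodes had the most p200 gene UMIs of these 3 classes: Ifi205 stood at 77.9 and 100.2 CPM and Ifi204 at 46.0 and 49.2, against 0.40 and 0.34, and 1.35 and 0.11, in smooth muscle-like barcodes.

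The genotype ratio of chondrocyte-like and smooth muscle-like barcodes changed when the 5 barcodes of each library with most UMIs of these genes were left out. These were 5 of 206 Kif13b-/- and of 1350 WT chondrocyte-like barcodes. They were 5 of 761 and of 1869 smooth muscle-like ones, and 5 of 130 and of 567 T cell-like ones. A larger share of Kif13b-/- barcodes was thus left out, which can lower the ratio by itself. In chondrocyte-like barcodes the sum went from 271 to 391 CPM (log2 ratio 0.53, 0.43 to 0.63) and 17 of 34 genes were higher, beside 10.0% of all genes, with 1 lower, beside 9.96%. A single Kif13b-/- barcode held 337 of the 967 UMIs (34.9%). Without the 5 barcodes of each library with most UMIs of these genes the ratio was -0.04, with 5 genes higher and 6 lower. The share over all genes was not counted without those barcodes in any class of this paragraph. In smooth muscle-like barcodes the ratio was 0.19 (0.11 to 0.26), with 9 of 30 genes higher (5.97% of all genes) and 1 lower (4.36%). It was 0.05, with 2 higher and 2 lower, without those barcodes, and -0.07 after thinning. In fibroblast-like barcodes it was 0.15 (0.08 to 0.23), with 5 of 33 higher (7.7% of all genes) and 2 lower (8.01%), and 0.12 with no gene higher without those barcodes. T cell-like barcodes gave 0.39 (0.25 to 0.53), of which 1 Kif13b-/- barcode held 213 of 710 UMIs, and -0.10 without the top 5 of each library. Over all barcodes 3 of the 39 genes were higher (Oas1a, Oas3 and Irf7), beside 4.5% of all genes, and 1 was lower (Isg20), beside 8.19%.

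Among dendritic cell-like barcodes the sum went from 1395 to 1138 CPM (-0.29, -0.39 to -0.20). 6 of 191 WT barcodes (3.14%, 1.16 to 6.71) and 0 of 82 Kif13b-/- barcodes (upper limit 4.40%) were interferon-high, and without the 6 the ratio was 0.15. In pericyte-like barcodes (1197 and 933) 1 WT barcode held 17.8% of the UMIs, and the ratio of -0.36 became -0.06 without the top 5 of each library. In Schwann or glial-like barcodes (927 and 629) it was -0.56 (-0.75 to -0.37), and -0.49 without them.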

How the data were processed

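The deposited files are 1 filtered matrix per library of UMI counts per gene and barcode, made with Cell Ranger 8.0.1 per the file headers and mm10 per the submitters' processing notes, from 10x 3′ libraries per the labels. Counts are not normalised by the authors, and 0 columns were left unused. A barcode passed with 500 or more UMIs, 300 or more genes and a mitochondrial share of no more than 20% (19832 in WT, 7315 in Kif13b-/-). Scrublet's own limit called 4 and 0 doublets and so had not worked; the 3146 and 428 barcodes with the highest scores (0.8% per 1000 barcodes) were removed instead. With scanpy 1.11.5, 2000 variable genes without the 39 genes and 124 related ones, 30 components and 15 neighbours, 39 Leiden clusters were formed at resolution 1. A cluster was named if at least 3 and at least 50% of a type's markers were raised and its 10 leading genes held no marker of another type alone; these limits were set after clusters were seen. Classes with at least 50 barcodes in each library are reported. Levels are UMIs per 1000000 UMIs of the class (CPM); UMIs count molecules, so no length scaling was applied. Ratios of single genes have 0.5 UMIs added to each count, and a gene counts as measured with 20 or more UMIs over both libraries. Intervals are exact (Poisson, Clopper-Pearson, or binomial given the sum of 2 counts), and cover counting error only at the depth of 81975755 and 59853601 analysed UMIs. With 1 library per genotype no test was made. The 39 genes, the related lists and the markers were chosen with earlier results of these data known. The genes named beyond the list are the 12 with the largest difference between interferon-high and other macrophages in both libraries (50 or more UMIs in each), leaving out ribosomal protein, mitochondrial, Gm and Rik genes. All 39 genes are described by role, and the promoters of 9 of them were not analysed here. Ratio, intervals and thinning were tested on simulated data. Alternatives are listed in the closing section. The result for 1 related gene is not reported here.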

Additional observations from a re-analysis of the deposited data

Results flagged for a closer look

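The summed ratio of the 39 genes was of opposite sign in macrophage-like (-0.34) and endothelial-like barcodes (0.28), and in the interferon-high (0.23) and the other barcodes (-0.51) of cluster 31. Each rests on 1 library per genotype, and neither difference was tested. The barcodes of cluster 31 were split on the thinned sum of these same 39 genes, so nothing is read from the opposite signs there. The variance of that sum in cluster 31 was 7.20 times the mean in WT and 11.6 times in Kif13b-/-. The part of this spread in the signs was not tested. The endothelial value was -0.02 without the sub-cluster led by Btnl9, while the macrophage value was below 0 in each of its 13 other settings.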

How the results depend on the processing

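Of the values that answer a comparison, 45 alternative values stayed close to the reported one, 54 moved and 9 changed sign. The log2 ratio over all barcodes (0.07) was 0.093 with at least 2000 UMIs, 0.17 with at most 10% mitochondrial UMIs, -0.040 with each barcode weighing the same, -0.0054 thinned, 0.14 without mitochondrial and ribosomal genes in the denominator, 0.10 without Ifih1, 0.044 without interferon-high barcodes, 0.032 without the top 5 barcodes and 0.11 without cluster 38. The endothelial ratio (0.28) was 0.41 at 10% mitochondrial UMIs, 0.077 with equal weights, 0.10 thinned, 0.17 at resolution 2, 0.22 without Slfn5, 0.20 without the top 5 and -0.018 without the sub-cluster led by Btnl9. The smooth muscle ratio (0.19) was -0.0052 with doublets kept, 0.062 with equal weights, -0.068 thinned and 0.053 without the top 5. The macrophage ratio (-0.34) was -0.29 at 10% mitochondrial UMIs, -0.31 with doublets kept, -0.51 with equal weights, -0.43 thinned, -0.52 at resolution 2, -0.54 without interferon-high barcodes, -0.44 without the top 5, -0.26 with cluster 0 and -0.30 in cluster 31 alone. The fibroblast ratio (0.15) was -0.0044 with doublets kept, 0.065 thinned, -0.0083 with the 39 genes used for clustering and 0.011 at resolution 2. The chondrocyte ratio (0.53) was 0.64 at 10% mitochondrial UMIs, 0.25 with doublets kept, 0.30 with equal weights, 0.065 thinned, 0.36 with the 39 genes used for clustering, 0.33 at resolution 2, 0.70 without Isg20, -0.065 without interferon-high barcodes and -0.044 without the top 5. In smaller classes, T cells gave -0.10 without the top 5, dendritic cells 0.15 without interferon-high barcodes and pericytes 0.023 with equal weights. Of the 39 genes in macrophages, the 2 higher became 0 at a ratio of 2, 7 thinned, 1 with the 39 genes used for clustering and 1 without the top 5. The 4 lower became 1 at a ratio of 2, 2 with at least 2000 UMIs, 8 thinned, 12 at resolution 2, 2 with cluster 0, 8 without the top 5 and 2 in cluster 31 alone. The share over all genes was not counted for these alternatives. At resolution 2 most interferon-high barcodes lay in an unnamed cluster, outside the macrophages. The interferon-high share in WT (8.69%) and Kif13b-/- (5.99%) was 22.0% and 12.5% with a limit of 5, 1.53% and 1.96% with a limit of 20, 1.91% and 0.82% at resolution 2, where most such barcodes lay in an unnamed cluster, 4.65% and 4.17% with cluster 0, and 12.3% and 11.1% in cluster 31 alone. Other causes were not tested. The settings without the top 5 barcodes, cluster 38 or the sub-cluster, with cluster 0 and in cluster 31 alone were chosen after seeing the data. The top 5 were a larger share of the Kif13b-/- than of the WT barcodes in every class, which can lower the ratio by itself. No paired analysis was possible because each genotype has 1 library.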
